A study of Homo sapiens with 13 samples.

Results

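The genes described here are 8 markers used to recognise breast cancer stem cells: CD44, NT5E, THY1, PROM1, ALDH1A1, ALDH1A3, SOX2 and SOX9. They were taken by name from the GENCODE release 44 annotation of hg19, out of 19894 protein-coding genes with an annotated canonical transcription start site (TSS), and all 8 were found. MDA-MB-231 is an established line of triple-negative, mesenchymal-like human breast carcinoma cells. Chromatin immunoprecipitation and sequencing (ChIP-seq) had been carried out in these cells under standard culture, with no treatment and no second condition, so the comparison is between genes. There were 2 libraries for each of CTCF, Pol II, H3K4me3, H3K4me1 and H3K27ac, and 1 library of pooled immunoprecipitations for p300/CBP, and the 2 input libraries were not analysed here. For each antibody the data are 1 list of peak positions called after the replicates had been merged. The lists give no height per peak, so depth is unknown, replicate error cannot be stated, no test between genes was possible, and a missing peak means only that the signal did not pass the threshold of the list.

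Breast cancer cells with tumour-initiating capacity are commonly isolated by surface antigens or by aldehyde dehydrogenase activity. CD44 is a receptor for hyaluronan, NT5E (CD73) is an ecto-enzyme that makes adenosine from AMP, THY1 (CD90) is a small glycoprotein anchored in the membrane by a lipid, and PROM1 (CD133) is a pentaspan protein of membrane protrusions. ALDH1A1 and ALDH1A3 oxidise retinal to retinoic acid and underlie the enzymatic assay for stem-like cells. SOX2 and SOX9 are DNA-binding factors of the SRY-box family, known from pluripotent cells and from epithelial progenitors respectively. H3K4me3 usually lies over active or poised promoters, H3K4me1 over enhancers, and H3K27ac over active elements of both kinds. p300 and CBP are acetyltransferases recruited to enhancers, Pol II marks engaged genes, and CTCF is an architectural DNA-binding protein.

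The 8 promoters fell into 3 chromatin states. CD44, NT5E, SOX9 and SOX2 carried H3K27ac, H3K4me3 and Pol II in a window of 3 kb centred on the TSS. ALDH1A3 carried H3K4me3 alone, and ALDH1A1, PROM1 and THY1 carried no peak of any of the 6 lists. The same 3 marks of activity lay together in 56.2% of all promoter windows, so 4 of 8 was close to the share among all genes. Windows with no peak of any list made up 28.0% of all genes, against 3 of the 8 markers.

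List by list, an H3K27ac peak shared at least 1 bp with the window of 4 of the 8 genes, against 61.4% of all windows. H3K4me3 was found in 5 of 8, against 62.7%, and Pol II in 4 of 8, against 58.4%. H3K4me1 was in 2 of 8 windows, those of CD44 and SOX2, where 59.3% of all windows held it. CTCF was in 1 of 8, that of SOX9, against 17.6%, and p300/CBP in 0 of 8, against 0.769%. None of these shares was tested, and the description that follows is of the differences among the 8 genes.

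**Figure D1:**
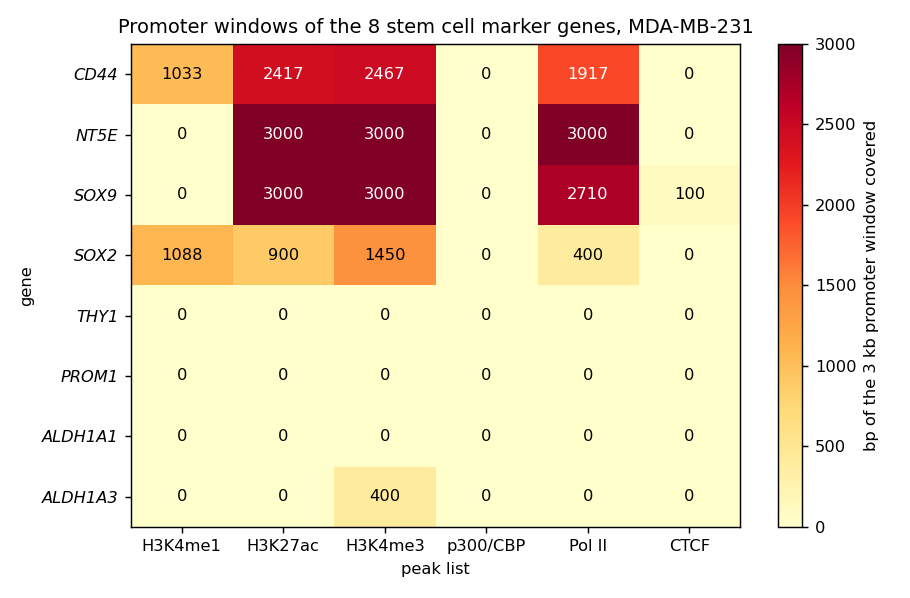
Base pairs of the 3 kb promoter window covered by peaks of each list (columns) for each of the 8 genes (rows), with the number written in each cell and the colour running from 0 to 3000 bp. NT5E and SOX9 are covered over all 3000 bp by H3K27ac and H3K4me3, SOX2 by 900 bp of H3K27ac, and THY1, PROM1 and ALDH1A1 are at 0 throughout.

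Among the surface markers, CD44 (ENSG00000026508.21, chr11:35160429-35253949 on hg19, plus strand) had a broadly marked promoter and many candidate enhancers. Its H3K27ac peak ran from 0.92 kb upstream to 6.53 kb downstream of the TSS, a width of 7450 bp that exceeded 98.6% of the H3K27ac list. The H3K4me3 peak of 6950 bp covered nearly the same stretch and was wider than 99.3% of its list, and a Pol II peak of 4250 bp lay within both. An H3K4me1 peak flanked the promoter on its upstream side and reached into the window, covering 1033 of its 3000 bp.

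Across the 93.5 kb body of CD44, 15 Pol II peaks covered 17.7% of the sequence, a larger share than in 85.3% of all genes. The Pol II peaks were dense over the first 15.2 kb, sparse in the middle of the gene, and ended with a 4700 bp peak from 91.5 to 96.2 kb that spanned the end of the transcript. H3K4me1 covered 50.3% of the body, more than in 94.1% of genes, and H3K27ac covered 21.0%.

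A candidate active enhancer (cAE) is taken here as an H3K4me1 region that shares at least 1 bp with H3K27ac and touches no promoter window, and a candidate inactive enhancer (cIE) as one without H3K27ac. In the gene body and 100 kb on either side CD44 had 12 cAEs, or 4.09 per 100 kb, a density higher than that of 97.3% of all genes, whose median was 0.98. This count rested on narrow peaks and short overlaps: without the H3K4me1 and H3K27ac peaks narrower than the median of their list CD44 had 5 cAEs and NT5E had 7, and with H3K27ac over at least 50% of the region they had 4 and 6. Of the 12, 3 overlapped the gene body, 4 lay upstream and the remaining 5 lay beyond the end of the gene, 4 of them overlapping SLC1A2, which encodes a glutamate transporter. No other protein-coding gene had its TSS in this stretch. The cAEs together covered 70.8 kb, or 24.1% of the 294 kb read. An H3K27ac peak that spans a TSS can reach out of the promoter window into a cAE. The cAE of CD44 from 1.88 to 9.08 kb downstream held only the H3K27ac peak of the promoter. Such cAEs beside the promoters of CD44, NT5E and SOX9 are included in the counts and densities given here.

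The widest cAE of CD44 was an intragenic region of 25050 bp, from 17.3 to 42.3 kb downstream of the TSS. Only 72 of the 24323 cAEs in the genome were as wide or wider. It held 3 H3K27ac peaks, 2 p300/CBP peaks, 5 Pol II peaks and a CTCF peak. The p300/CBP peak 27.5 kb downstream and a 150 bp CTCF peak overlapped at their edges, and a 350 bp Pol II peak overlapped both. This was the only p300/CBP peak of the 8 genes that shared bases with CTCF.

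CD44 had 7 p300/CBP peaks, 2.38 per 100 kb, a density higher than in 98.0% of genes, and all 7 lay in cAEs. The sequences of the p300/CBP peaks are given because the heptamer TGANTCA was present in most of them. It includes TGACTCA and TGAGTCA, the words recognised by AP-1 dimers such as Fra-1 with a JUN partner, and also admits TGAATCA and TGATTCA. Both strands are covered by a single search since the word is its own reverse complement. The first 2 sequences below come from CD44, the intronic peak in the widest cAE at chr11:35188251-35188550 and the peak at chr11:35236301-35236600, which overlaps a coding exon of the canonical transcript. Both are printed on the plus strand of hg19 with TGANTCA in capitals.
CD44, 27.5 kb downstream: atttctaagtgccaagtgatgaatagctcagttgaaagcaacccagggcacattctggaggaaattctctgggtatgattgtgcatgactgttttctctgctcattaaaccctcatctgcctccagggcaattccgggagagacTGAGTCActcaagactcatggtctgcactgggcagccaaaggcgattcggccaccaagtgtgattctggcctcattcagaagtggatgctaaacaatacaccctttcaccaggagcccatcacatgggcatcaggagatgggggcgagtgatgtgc
CD44, 75.6 kb downstream: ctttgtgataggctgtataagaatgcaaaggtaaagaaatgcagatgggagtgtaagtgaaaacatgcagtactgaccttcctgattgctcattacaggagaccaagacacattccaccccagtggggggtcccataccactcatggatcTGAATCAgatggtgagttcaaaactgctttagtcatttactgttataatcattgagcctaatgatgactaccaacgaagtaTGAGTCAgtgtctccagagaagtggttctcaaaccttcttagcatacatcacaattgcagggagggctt

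The downstream peak held the heptamer at 2 places, as TGAATCA and TGAGTCA, and the peak in the widest cAE held TGAGTCA. In all, 5 of the 7 CD44 peaks held the word, and the other 2 lay 55.1 kb upstream and 34.1 kb downstream.

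NT5E (ENSG00000135318.12, chr6:86159302-86205509, plus strand) carried the broadest promoter marks of the 8 genes. Its H3K27ac peak spanned 22450 bp, from 2.70 kb upstream to 19.7 kb downstream, and only 10 of the 41034 H3K27ac peaks in the genome were as wide or wider. Its H3K4me3 peak spanned 12500 bp and stood among the 16 widest of 24693. A Pol II peak of 21250 bp lay over the same stretch, with 82 of 26065 peaks at least as wide.

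Pol II covered 78.0% of the NT5E body in 7 peaks. Together with SOX9, NT5E was among the 4.15% of all genes with Pol II over at least 75% of the body, so 2 of the 8 markers had such coverage. H3K4me1 covered 69.0% of the body and none of the promoter window, which H3K4me3 filled. Further Pol II peaks continued past the end of the gene to 48.8 kb and began 9.40 kb upstream of the TSS.

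Within its 246 kb NT5E had 9 cAEs, 3.66 per 100 kb, a density above that of 95.2% of genes, and 8 p300/CBP peaks, 3.25 per 100 kb, with 99% of genes below it. The p300/CBP peaks formed 2 groups, with 4 peaks between 44.6 and 46.5 kb upstream, 3 between 9.50 and 15.1 kb downstream inside the gene, and a lone peak 88.9 kb upstream. The upstream group lay under a Pol II peak of 3200 bp and an H3K27ac peak of 7400 bp, 98.5% of the list being narrower. The intragenic group lay inside a cAE of 17950 bp, from 3.35 to 21.3 kb downstream. The only H3K27ac peak in this cAE was the 22450 bp peak that spans the TSS. That peak also reached into the cAE from 2.35 to 4.9 kb upstream. SNX14, a sorting nexin, had its own active promoter 143.8 kb downstream of the NT5E TSS. When p300/CBP peaks less than 500 bp apart were joined, the number at NT5E was 4.

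The NT5E peak with 2 copies of TGAGTCA, at chr6:86114451-86114750, is shown on the plus strand because it lay in the upstream group, where Pol II and H3K27ac were also listed.
NT5E, 45.1 kb upstream: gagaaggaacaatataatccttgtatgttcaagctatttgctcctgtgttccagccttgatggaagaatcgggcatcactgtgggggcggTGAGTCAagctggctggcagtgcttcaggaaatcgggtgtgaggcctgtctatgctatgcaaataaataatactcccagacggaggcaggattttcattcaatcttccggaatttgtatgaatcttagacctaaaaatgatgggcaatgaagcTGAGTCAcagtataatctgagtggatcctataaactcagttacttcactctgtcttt

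It overlapped no H3K4me1 region, so it counted in neither a cAE nor a cIE, although H3K4me1 was listed on both sides of it. For NT5E 6 of 8 p300/CBP peaks held the heptamer.

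**Figure D2:**
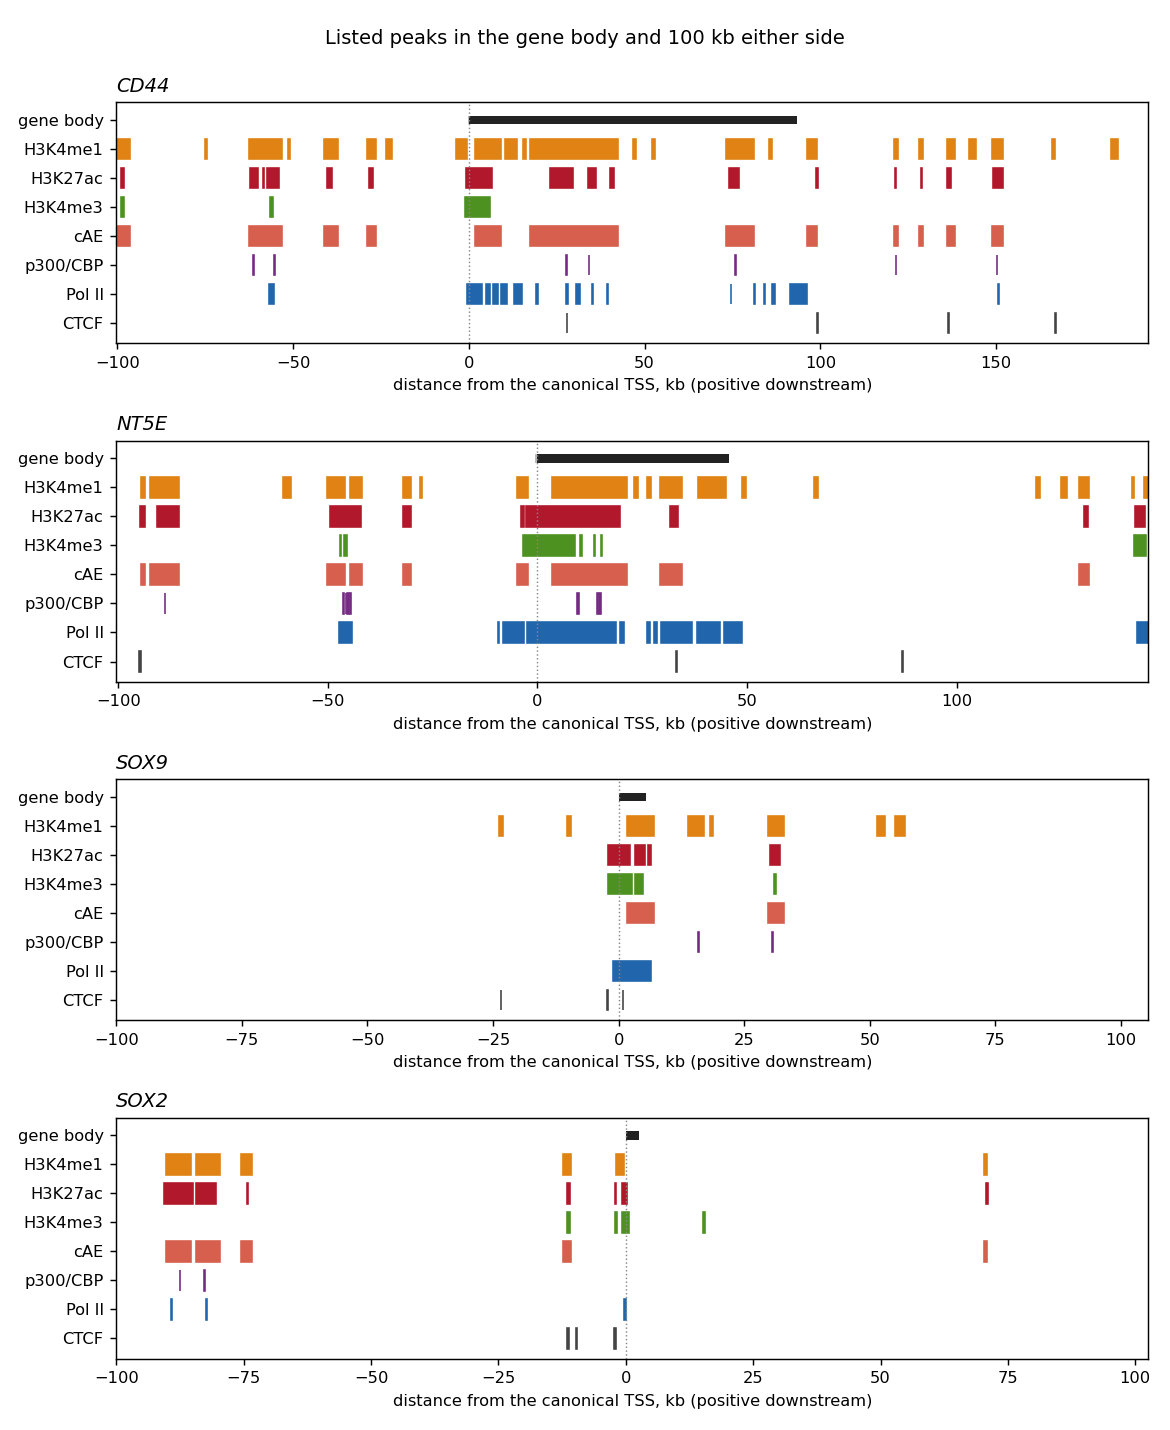
Peaks of the 6 lists and cAEs around CD44, NT5E, SOX9 and SOX2, the genes with active promoter marks, by distance from the TSS in kb, positive downstream. Dark bars are the canonical transcript, grey bars the rest of the annotated gene, and each coloured block is a peak, with narrow peaks drawn at a minimum line width; CD44 shows 12 cAEs, NT5E 9, SOX2 5 and SOX9 2.

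THY1 (ENSG00000154096.14, chr11:119286186-119295695, minus strand) had a promoter window without a peak and an active mark within the gene. A cAE of 2250 bp lay from 4.13 to 6.38 kb downstream of the TSS, over the last part of the gene, and held H3K27ac over 1650 bp and H3K4me3 over 600 bp. It overlapped untranslated exonic sequence of THY1 and exons of the antisense lncRNA THY1-AS1, and such lists do not carry strand. No Pol II peak lay in the THY1 body.

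The wider THY1 surroundings held 5 cAEs, 13 cIEs and 11 CTCF peaks in 210 kb. The density of cIEs, 6.20 per 100 kb, was higher than in 96.8% of genes and that of CTCF, 5.25 per 100 kb, was higher than in 93.5%. There was no p300/CBP peak. Of the 5 other TSSs in this stretch, MCAM, an adhesion molecule also called CD146, RNF26, a ubiquitin ligase, and USP2, a ubiquitin protease, had H3K27ac at their promoters. MFRP and C1QTNF5 had none. The nearest Pol II peak to the THY1 TSS was 83.8 kb away, in the region of RNF26.

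PROM1 (ENSG00000007062.12, chr4:15964699-16086001, minus strand) had the fewest listed peaks of the surface genes. Over its 121 kb body the lists held only an H3K4me1 peak of 550 bp and 3 CTCF peaks. All 4 of its cAEs lay beyond the end of the gene, the nearest 161.5 kb downstream of the TSS. They were farther from PROM1 than the start of FGFBP1, a fibroblast growth factor binding protein whose TSS lay 145.3 kb downstream and whose promoter carried H3K4me1 without H3K27ac. The promoter of the paralog PROM2 also carried no peak of the 6 lists.

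The only p300/CBP peak near PROM1 lay in the nearest of these cAEs, at chr4:15923001-15923100. It is shown on the minus strand, the strand of PROM1, with its heptamer TGATTCA in capitals, since it was the sole p300/CBP peak counted for this gene.
PROM1, 162.5 kb downstream: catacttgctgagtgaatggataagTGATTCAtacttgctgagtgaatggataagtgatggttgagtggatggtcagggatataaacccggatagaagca

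ALDH1A1 (ENSG00000165092.13, chr9:75515587-75695358, minus strand) had no peak of any list over its promoter window or over the 52.4 kb of its canonical transcript. The annotated gene extends 127.4 kb upstream of the canonical TSS, and this upstream part held the single cAE within the annotated body, 5200 bp wide and 24.3 kb from the TSS. It contained H3K27ac over 1500 bp and a p300/CBP peak of 100 bp without the heptamer. No Pol II peak lay anywhere in the annotated body.

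The other 4 cAEs and 3 of the 5 p300/CBP peaks counted for ALDH1A1 lay in a stretch from 162.6 to 227.7 kb upstream. A further p300/CBP peak lay 124.3 kb downstream in an intron of TMC1. ANXA1, which encodes annexin A1, had its TSS 198.8 kb upstream, with H3K4me1, H3K27ac, H3K4me3 and Pol II at its promoter. The H3K27ac peak of the ANXA1 promoter, 7050 bp wide, exceeded 98.3% of the list. It was the only H3K27ac peak in the cAE from 201.5 to 203.7 kb upstream. With the gene body taken from the canonical transcript, the number of cAEs at ALDH1A1 was 1 and that of p300/CBP peaks 2.

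ALDH1A3 (ENSG00000184254.17, chr15:101417919-101456831, plus strand) was the only marker with H3K4me3 and without H3K27ac and Pol II at the promoter. This H3K4me3 peak was 400 bp wide, narrower than most of its list, since only 17.5% of the list was narrower. It lay from 0.69 to 1.08 kb upstream of the TSS and was no longer counted in a window of 1 kb. The body carried no H3K4me1, H3K27ac, p300/CBP or Pol II peak.

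ALDH1A3 had 2 cAEs and no p300/CBP peak within 239 kb. A cAE 29.2 kb upstream overlapped exons of the lncRNA GCAWKR and held H3K4me3, Pol II and CTCF, and the other lay in an intron of LRRK1, a kinase gene. The LRRK1 promoter, 39.5 kb downstream of the ALDH1A3 TSS, carried the 3 marks of activity with H3K4me1 and CTCF. CTCF peaks numbered 12, or 5.02 per 100 kb, a density above that of 92.7% of genes.

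**Figure D3:**
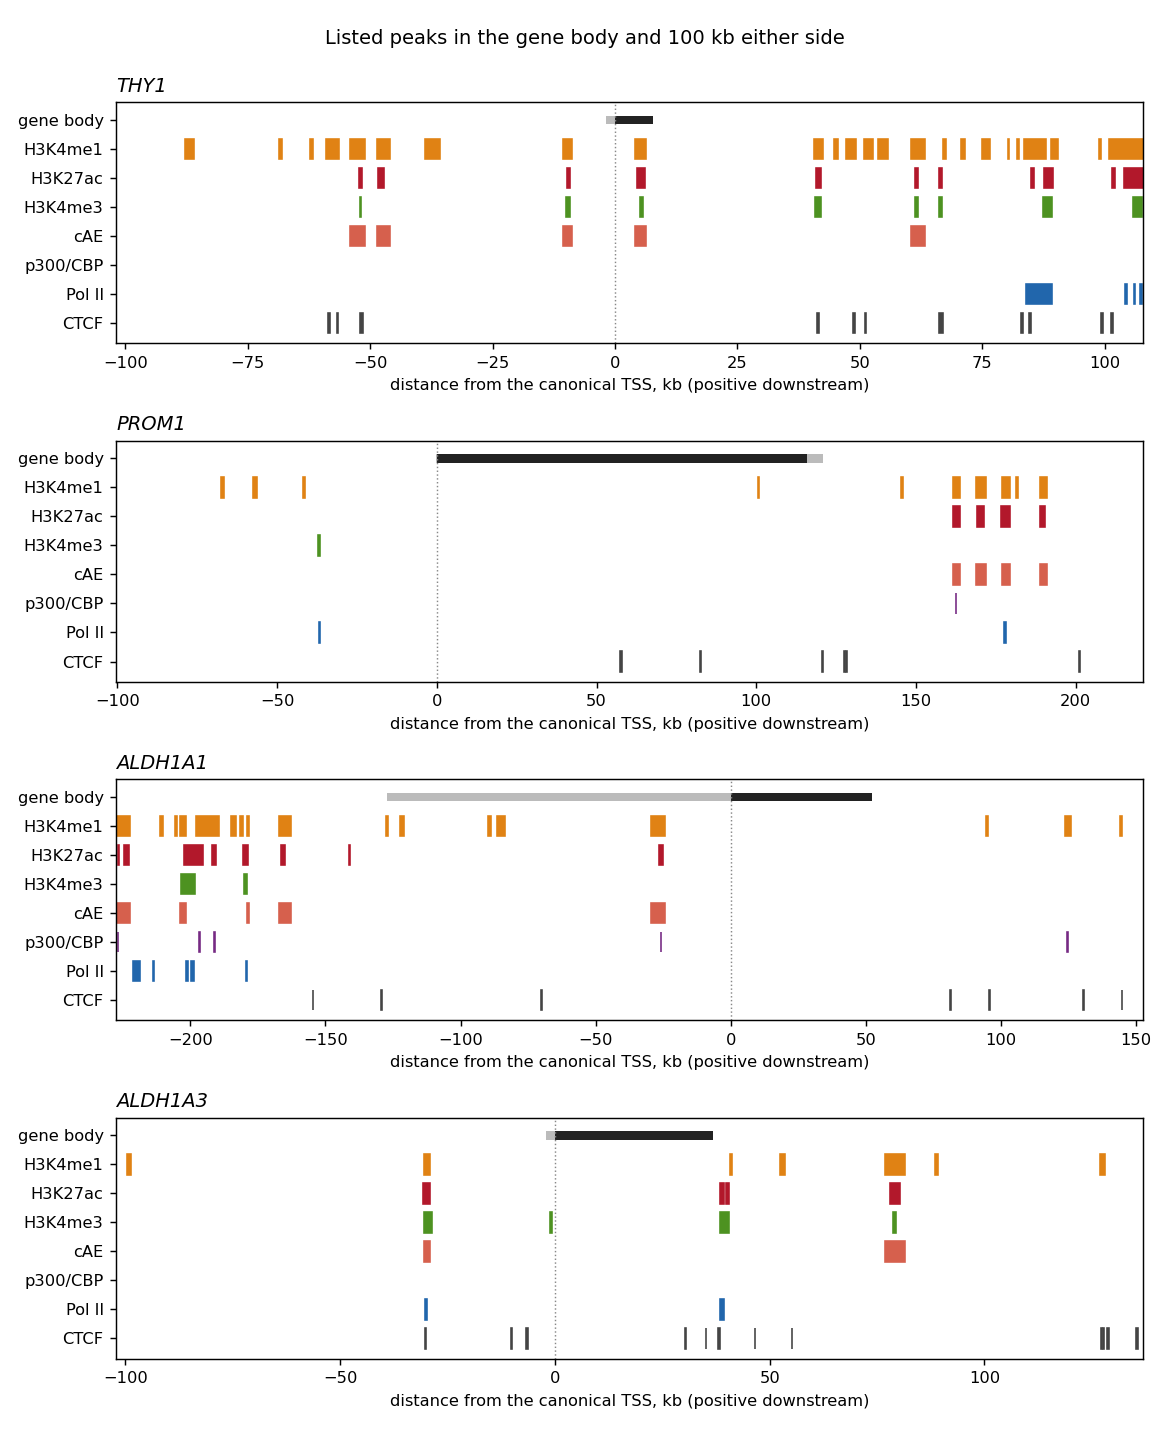
Peaks of the 6 lists and cAEs around THY1, PROM1, ALDH1A1 and ALDH1A3, the genes without active promoter marks, by distance from the TSS in kb, positive downstream. Dark bars are the canonical transcript, grey bars the rest of the annotated gene and coloured blocks are peaks; the 4 cAEs of PROM1 lie past the end of the gene, and 4 of the 5 cAEs of ALDH1A1 lie at least 162.6 kb upstream.

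The base composition of the ALDH promoters differed. The ratio of observed to expected CpG in the 3 kb window was 0.864 for ALDH1A3, higher than in 97.5% of the windows measured, and 0.225 for ALDH1A1, higher than in 12.7%. The median was 0.629 for windows with H3K4me3 and 0.298 for windows without it. The sequences from 250 bases before the TSS to 50 from it on the strand of each gene, read from hg19, show this contrast, with each CG in capitals. They lie at chr9:75567920-75568219 for ALDH1A1 and at chr15:101419786-101420085 for ALDH1A3.
ALDH1A1 promoter: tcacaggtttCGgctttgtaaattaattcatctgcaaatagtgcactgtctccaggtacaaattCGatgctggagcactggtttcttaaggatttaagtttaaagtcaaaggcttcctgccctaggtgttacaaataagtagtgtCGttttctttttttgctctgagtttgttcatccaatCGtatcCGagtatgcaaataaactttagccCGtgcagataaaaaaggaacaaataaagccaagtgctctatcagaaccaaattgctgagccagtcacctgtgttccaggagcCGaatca
ALDH1A3 promoter: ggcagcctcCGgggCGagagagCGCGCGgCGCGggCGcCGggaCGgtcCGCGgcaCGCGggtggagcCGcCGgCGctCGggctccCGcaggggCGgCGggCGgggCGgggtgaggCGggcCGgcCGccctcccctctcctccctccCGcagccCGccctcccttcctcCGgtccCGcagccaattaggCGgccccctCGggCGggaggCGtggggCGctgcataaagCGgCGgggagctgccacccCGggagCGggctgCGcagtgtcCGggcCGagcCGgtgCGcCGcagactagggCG

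The ALDH1A1 stretch held 7 CG dinucleotides and the ALDH1A3 stretch 46. Composition did not order the 8 genes as the marks did. NT5E, SOX9 and SOX2 had ratios of 0.776, 0.740 and 0.708, and CD44, with broad marks, had 0.430. PROM1 had 0.654 with no mark, and THY1 had 0.423 with no mark.

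SOX9 (ENSG00000125398.8, chr17:70117161-70122557, plus strand) was marked over its whole length. Pol II lay in a single peak of 7750 bp that covered 100% of the 5.40 kb gene and its flanks, and H3K27ac and H3K4me3 each covered 79.5% of the body. Both marks filled the promoter window, as at NT5E. The CTCF peak in the window was 100 bp wide, the narrowest width in its list, and lay 0.79 kb downstream of the TSS. It was not counted when only the wider CTCF peaks were kept or in a window of 1 kb.

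In the gene body and 100 kb on either side SOX9 had fewer cAEs than CD44, while its p300/CBP density was higher than in 89.9% of genes. There were 2 cAEs, or 0.974 per 100 kb, close to the median over genes, of which the nearer began 1.69 kb downstream and covered the rest of the gene and the other lay 29.6 kb downstream in an intron of an unnamed lncRNA (ENSG00000288605). The nearer cAE shared bases with the H3K27ac and H3K4me3 peaks that span the TSS. The farther cAE held H3K27ac, H3K4me3 and a p300/CBP peak. A second p300/CBP peak, 15.7 kb downstream, lay in a cIE. Both held the heptamer, and the peak in the cAE, at chr17:70147701-70147850 on the plus strand, is shown as the only p300/CBP peak in a cAE of SOX9.
SOX9, 30.5 kb downstream: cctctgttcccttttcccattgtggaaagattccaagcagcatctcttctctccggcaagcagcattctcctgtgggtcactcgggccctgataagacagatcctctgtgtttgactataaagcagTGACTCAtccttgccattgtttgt

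SOX2 (ENSG00000181449.4, chr3:181429713-181432224, plus strand) had active marks that were narrow. H3K27ac covered 900 bp around the TSS, with 35.4% of the list narrower, and Pol II covered 400 bp, with 23.6% narrower. H3K4me3 reached 1450 bp. H3K27ac and Pol II at SOX2 were no longer counted when peaks narrower than the list median were dropped, while those of CD44, SOX9 and NT5E were. Pol II covered 3.50% of the SOX2 body.

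The broadest marks near SOX2 lay far upstream, in introns of the overlapping lncRNA SOX2-OT. A pair of cAEs of 4950 and 4750 bp lay between 79.6 and 90.3 kb upstream, each with H3K27ac, a Pol II peak and a p300/CBP peak. Their H3K27ac peaks, 5650 and 3850 bp wide, exceeded 96.7% and 91.7% of the list, and so were wider than the one at the promoter. All 3 CTCF peaks of the SOX2 stretch, 2.01 to 11.5 kb upstream, lay between this pair and the TSS. With 50 kb on either side in place of 100 kb SOX2 had 1 cAE and no p300/CBP peak.

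The p300/CBP peak of the more distant cAE, at chr3:181342151-181342300 on the plus strand, held TGAGTCA, and the other held no heptamer.
SOX2, 87.4 kb upstream: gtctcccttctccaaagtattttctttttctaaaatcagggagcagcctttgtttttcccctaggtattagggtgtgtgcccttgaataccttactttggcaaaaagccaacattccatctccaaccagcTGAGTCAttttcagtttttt

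Taken over the 8 genes, there were 44 cAEs and 59 cIEs. Every one of the 8 had at least 1 cAE, against 80.6% of all genes, and 6 of 8 had at least 1 p300/CBP peak, against 37.5%. Genes with long bodies have more sequence in which a peak can be counted, and for this reason the densities per 100 kb are given. On that scale CD44 and NT5E stood above the upper quartile for cAEs, p300/CBP and Pol II, and THY1 and ALDH1A3 did so for CTCF. ALDH1A1, SOX2 and SOX9 were also above the upper quartile for p300/CBP, which was 0.457 per 100 kb. SOX2 and THY1 were above the upper quartile of 1.96 cAEs per 100 kb as well, with 2.47 and 2.39, whereas ALDH1A3, SOX9, PROM1 and ALDH1A1 lay between 0.837 and 1.32.

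**Figure D4:**
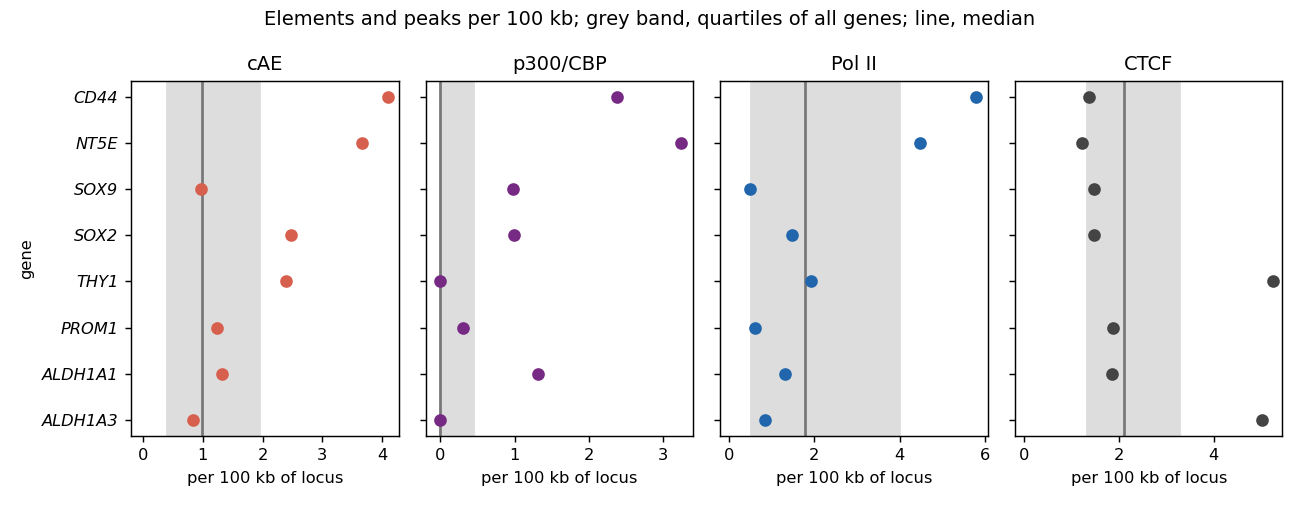
Number of cAEs, p300/CBP, Pol II and CTCF peaks per 100 kb of gene body and 100 kb flanks for each of the 8 genes (points), with the median of 19894 genes as a line and their quartiles as a grey band. CD44 and NT5E have the highest values for cAEs (4.09 and 3.66), p300/CBP (2.38 and 3.25) and Pol II (5.79 and 4.47), and THY1 and ALDH1A3 for CTCF (5.25 and 5.02).

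Of the 44 cAEs, 15 shared bases with p300/CBP, or 34.1% (95% Wilson interval 21.9 to 48.9), against 20.6% of all cAEs. Pol II was in 17, or 38.6% (25.7 to 53.4), against 21.0%. The shares with CTCF (15.9% against 16.4%) and with H3K4me3 (36.4% against 34.2%) were close to those of all cAEs. These intervals cover counting error only, and cAEs of the same gene are neighbours rather than independent draws. CD44 and NT5E had 12 and 9 of the 44 cAEs, and 7 and 6 of the 19 p300/CBP peaks inside cAEs. They also had 17 and 11 of the 45 Pol II peaks, so the p300/CBP and Pol II shares rest largely on these genes. The cAEs of the markers were also wider, with a median of 2925 bp against 2550 bp, and wider regions have more room for a peak.

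The 8 genes had 25 p300/CBP peaks, of which 19 were inside cAEs, 2 in cIEs and none in their promoter windows. Of all 13983 p300/CBP peaks on the nuclear chromosomes, 7004 lay in cAEs. The heptamer was found in 19 of the 25, or 76.0% (56.6 to 88.5), whereas 28.1% of the p300/CBP peaks on the nuclear chromosomes held it. Among peaks in cAEs it was present in 14 of 19, or 73.7%, against 43.8%. The median width of the 25 peaks was 200 bp and that of the list 150 bp. In a fixed window of 200 bp around the peak centre the shares were 80.0% and 33.1%, and without the peaks narrower than the list median they were 88.2% and 42.7%. For peaks in cAEs these became 78.9% against 49.9% and, for the 12 wider peaks, 83.3% (55.2 to 95.3) against 55.2%, so that this last interval reached down to the share of all such peaks. The AP-1 words TGACTCA or TGAGTCA alone, a count added after seeing the data, were in 15 of the 25 peaks, with a 95% Wilson interval of 40.7% to 76.6%, against 20.7%, and among peaks in cAEs in 12 of 19, or 63.2% (41.0 to 80.9), against 33.2%. These intervals also cover counting error only and are no test. Peaks of the same gene, such as the upstream group of NT5E, are neighbours rather than independent draws. CD44, NT5E and ALDH1A1 gave 15 of the 19 peaks with the word, so the share describes few genes, and binding of AP-1 was not analysed here.

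CTCF peaks on either side of each TSS, outside the promoter window, enclosed stretches of very different length and content. At ALDH1A3 the nearest peaks lay 6.39 kb upstream and 30.3 kb downstream, and the 36.7 kb between them held no cAE and no p300/CBP peak. At NT5E they lay 94.7 kb upstream and 33.0 kb downstream, and the stretch between them overlapped 8 cAEs and 8 p300/CBP peaks. At CD44 the stretch ran from 140.9 kb upstream, beyond the 100 kb read for the other counts, to the narrow intronic CTCF peak 27.8 kb downstream. It overlapped 8 cAEs, some of them outside the region read. The cAE of 25050 bp was counted among them although it ran on past the CTCF peak.

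At SOX9 the nearest CTCF peaks outside the promoter window lay 2.06 kb upstream and, beyond the region read for the other counts, 268 kb downstream. Between them no CTCF peak was listed other than the 100 bp peak in the promoter window, and the stretch held 8 cAEs and 8 p300/CBP peaks and no other protein-coding TSS. At SOX2 the nearest peaks lay 2.01 kb upstream and, also beyond the region read, 182.9 kb downstream, with 1 cAE between them. Contacts between these elements and the promoters were not analysed here.

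Other genes of the same pathways were read by lists chosen for each member. Together, 37 of 81 genes in 6 lists carried H3K27ac, H3K4me3 and Pol II at the promoter, against 56.2% of all genes, and 26 of the 81, or 32.1%, carried no histone mark, against 30.4% of all genes. Among other surface markers of breast and mesenchymal stem cells, 6 of 11 had the 3 marks: the integrins ITGA6 and ITGB1, PROCR (the protein C receptor), KIT, ALCAM and ABCG2. EPCAM, an epithelial adhesion molecule, and CXCR4, a chemokine receptor, had none. CD24, whose absence is used with CD44 to define stem-like cells, was not analysed here.

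Among hyaluronan and CD44 partners, 11 of 18 had the 3 marks. They included the hyaluronan synthase HAS2, the hyaluronidases HYAL2 and HYAL3, the receptors HMMR and LAYN, the proteoglycan VCAN, the splicing factor ESRP2, and EZR, MSN, RDX and NF2, which link the CD44 tail to actin or relate to those linkers. HAS1, LYVE1 and SPP1 had no histone mark. ESRP1, which favours epithelial splice forms of CD44, carried H3K4me1 and H3K4me3 without H3K27ac or Pol II.

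In the purine pathway around NT5E, 7 of 12 had the 3 marks: ENPP1, ADA, ADK, the nucleoside transporters SLC29A1 and SLC29A2, and the adenosine receptors ADORA1 and ADORA2B. ENTPD1 (CD39), which makes the AMP used by NT5E, ENTPD2 and ADORA3 had none. In the retinoid pathway around the ALDH1A enzymes the count was 7 of 15, with ALDH1B1, RDH10, CRABP2 and the receptors RARB, RARG, RXRA and RXRB. Those with no histone mark included ALDH1A2, the other retinal dehydrogenase, CRABP1 and CYP26A1.

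Among other SOX genes only 3 of 17 had the 3 marks, namely SOX4, SOX12 and SOX13. No histone mark was listed at SOX1, SOX3, SOX6, SOX8, SOX10, SOX11, SOX14, SOX17, SOX18 and SOX30. Among pluripotency and self-renewal factors 3 of 8 had them (KLF4, BMI1 and NOTCH1), and NANOG, POU5F1, LIN28B and SALL4 had no histone mark. NANOG and POU5F1 are partners of SOX2 in pluripotent cells, and the SOX2 promoter was marked where theirs were not.

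**Figure D5:**
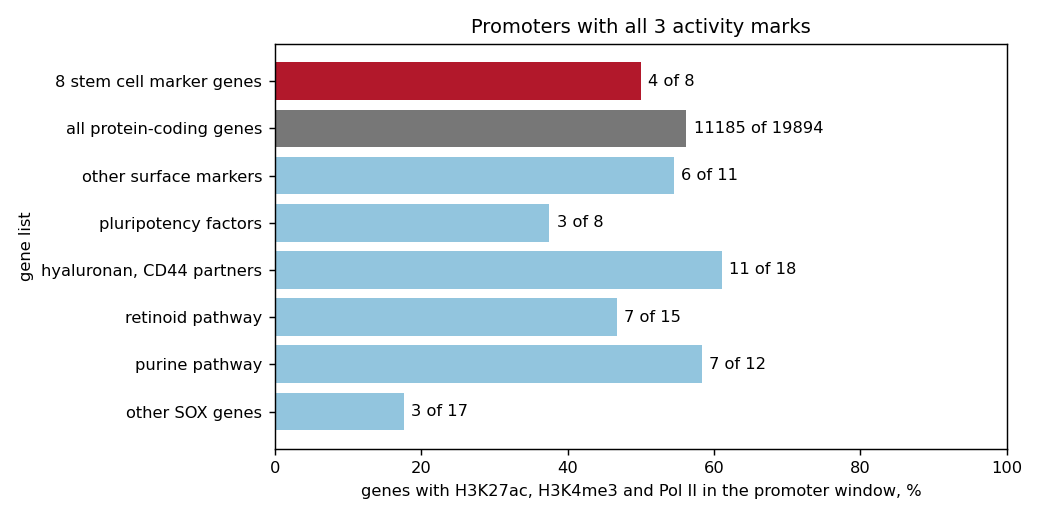
Percentage of genes with H3K27ac, H3K4me3 and Pol II in the 3 kb promoter window, for the 8 stem cell marker genes (red), all protein-coding genes (grey) and 6 lists of related genes (blue), with the counts beside the bars. The 8 genes stand at 4 of 8, all genes at 56.2%, hyaluronan and CD44 partners at 61.1% and other SOX genes at 17.6%.

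The markers were compared with each other over 12 features, the base pairs covered by each list in the promoter window and in the body with its flanks, each turned into a percentile over all genes. On this measure ALDH1A1 and THY1 were the most alike, with a mean absolute difference of 10.5 percentile points, followed by ALDH1A3 and PROM1 with 11.6. The base pairs were not divided by the length read, which was 380 kb for ALDH1A1 and 210 kb for THY1. Neither of them had a peak in its promoter window, so those features were equal. Per 100 kb ALDH1A1 and THY1 were apart for CTCF (1.84 and 5.25 peaks) and H3K4me1 (4.48 and 11.5), and nearer for Pol II (1.32 and 1.91). CD44 and NT5E differed by 13.0. The least alike were ALDH1A3 and NT5E, with 49.7, and the members of the ALDH1A family differed by 19.2 and those of the SOX family by 29.6.

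Outside the 8 genes, and leaving out genes within 1 Mb on the same chromosome, EGFR and ANKRD33B were among the 3 genes with patterns most like that of CD44. Their mean differences were 4.23 and 4.39 percentile points, where the median gene differed by 30.1. For SOX9 the nearest were ANKRD10, RCOR3 and SPRED1, with 4.08, 4.15 and 5.80 against a median of 32.8. These are descriptions of likeness over the 6 lists in 1 cell line.

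The identity of the cells was read from promoters in the same way. VIM, AXL and CAV1, known from mesenchymal-like breast lines, carried the 3 marks of activity. ESR1 and GATA3 carried no peak, as did PTPRC of leukocytes and ALB of hepatocytes. PGR carried H3K4me3 alone. FOXA1 and ERBB3, used as luminal markers, carried the 3 marks with H3K4me1 and CTCF, so the luminal list of 5 genes was not uniformly unmarked.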

How the data were processed

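MDA-MB-231 chromatin was profiled by ChIP-seq. Per the study's methods the authors aligned reads to hg19 with BWA-backtrack (the submitters' processing notes name Bowtie2), made signal in 50 bp bins with PASHA, merged replicates and called peaks by thresholds of 30 to 60 signal units. The deposited values are peak starts and ends in bp, a unit without counts, so depth is unknown. Positions fall on the 50 bp grid, and the listed end was taken as the first base after the peak. The p300/CBP list read here holds 13984 peaks, more than the number the study reports. The 24323 cAEs counted here are fewer than those of the study.

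Peaks were intersected with GENCODE release 44 on hg19 in Python 3.11.15 with NumPy 2.4.6, with at least 1 bp shared. The interval code was tested on simulated data. Promoter windows were 3 kb on canonical TSSs, and CpG could be measured in 19876 of them. Sequences came from GRCh37. All 8 markers are named, with neighbours that carry H3K27ac, up to 10 marked and 10 unmarked genes of each list (and the 1 further marked gene among the hyaluronan and CD44 partners), and the 3 genes most like CD44 and SOX9. MFRP, C1QTNF5, FGFBP1, TMC1, SLC1A2, ESRP1, the lncRNAs and genes with other mark combinations were named after their values were seen. A few genes that this rule names are not reported here. The markers and lists were chosen with earlier results of these data known. No replicate could be compared, and no test was made. Alternatives were wider peaks only, other windows, flanks and TSSs, stricter cAEs and, added later, canonical gene bodies and TGACTCA or TGAGTCA alone.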

Additional observations from a re-analysis of the deposited data

How the results depend on the processing

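Of 51 counts and shares recomputed under an alternative, 39 stayed within 1.5 times the reported count or inside its interval. These include the members with p300/CBP at the promoter, always 0, and those with a cAE, always 8, counts already at an end of their range. A fall from 4 members to 3, as for H3K27ac with wide peaks only, also stayed within this limit. With the peak centre required inside the window, the counts of members fell for H3K4me1 to 1, H3K27ac to 2, H3K4me3 to 3 and Pol II to 1, because wide peaks such as those of CD44 and NT5E are centred outside it. In a 6 kb window H3K4me1 was counted for 4 members and CTCF for 2. CTCF was counted for 0 with wide peaks only and for 0 in a 1 kb window. The 44 cAEs became 28 with wide peaks only, 28 with 50 kb flanks and 22 where H3K27ac covered at least 50% of the region. By gene, both THY1 and SOX2 went from 5 cAEs to 2 with wide peaks only and to 2 under the 50% rule, which took ALDH1A1 from 5 to 1. With 50 kb flanks ALDH1A1 had 2 cAEs and SOX2 had 1. The 25 p300/CBP peaks became 15 with 50 kb flanks. The same 4 members carried H3K27ac in windows of 1 kb and 6 kb. The canonical gene body, chosen after seeing the data, changed no count by over 1.5 times in total but took ALDH1A1 from 5 cAEs to 1. No paired analysis was possible because replicates were merged before peaks were called, so leaving out a replicate was not possible either. Without a value per peak, a width limit stands in for a stricter threshold, and which peaks are near the threshold cannot be told.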
